A study of Rattus norvegicus with 4 samples.

Results

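The genes described here make sterols and fatty acids, control that synthesis, or move and store the products. They are 50 listed genes, of which 48 were measured, each through the brightest probe set (by mean intensity over the 4 arrays) annotated with its symbol alone. They were taken out of 12922 genes measured in that way. By role, 18 of 19 listed genes of the mevalonate and sterol path were measured, all 5 genes of SREBP control, 7 of 8 genes of sterol uptake, storage and efflux, and all 18 genes of fatty acid synthesis, desaturation and activation. Hmgcs1 and Npc1, the remaining members, were not analysed here.

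The cells were smooth muscle cells of rat aorta, which give the vessel wall its contractile force. Every culture was plated at 10000 cells per cm2, grown for 24 h in 10% fetal bovine serum and then kept for 72 h in medium free of serum and insulin. In that medium, 2 samples were given PDGF-BB, a dimeric platelet-derived growth factor that acts as a mitogen on these cells, at 30 ng/mL, and 2 were given the solvent alone, which was 10 mM acetic acid with 0.2% bovine serum albumin. Exposure lasted 3 h in both groups. The labels give neither strain, age nor passage, and they do not say whether the samples of a group were separate cultures. Each p-value thus sets the change against the spread between arrays within a group, which may be technical.

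Cholesterol is built from acetyl-CoA through mevalonate, the isoprenoid pyrophosphates, squalene and lanosterol. Transcription of most enzymes of this path is driven by the SREBP factors, which are made as membrane proteins of the endoplasmic reticulum. The escort protein SCAP carries them to the Golgi for cleavage when sterols are low, and the INSIG proteins hold SCAP back when sterols are high. Fatty acid synthesis shares this control through SREBP-1, the product of Srebf1. For cholesterol alone, the liver X receptors work in the opposite sense and turn on its efflux when oxysterols accumulate. In the arterial wall, smooth muscle cells can take up and esterify cholesterol and become lipid-laden.

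After 3 h of PDGF-BB, 12 of the 48 members were higher than with vehicle and 7 were lower, and 29 did not pass the threshold (limma, adjusted p under 0.05 over 23707 probe sets). The sizes were mostly moderate. Only Acsl4 and Soat1 rose by at least 2-fold, and Lpin1, Dhcr7, Insig2 and Fads1 fell by at least 2-fold, against 4.6% of all genes higher and 3.78% lower by that size. Among all 12922 genes, 12.4% were higher and 15.3% lower by the same rule. In either direction, 19 members and 27.7% of all genes were called. The members called higher were thus 25.0% of the members, above that background, and those called lower were 14.6%, close to it. The members were brighter than most genes, with 6.25% of them at or below background in both groups against 29.5% of all genes. Among the 9104 genes above background in at least 1 group, 16.2% were higher and 20.2% lower, and of the 45 members above it 26.7% were higher and 13.3% lower. Background here means an intensity of 80.3, the highest value among 27 Bacillus control probe sets, which is a rough guide. The arrays of the 2 groups did not overlap for 40 of the 48 members, or 83.3%, and for 67.5% of all genes. PDGF-BB was above vehicle in 22 of these members and below in 18, against 29.7% and 37.8% of all genes. The median log2 fold change was 0.09 over the members and -0.03 over all genes. All log2 fold changes set PDGF-BB against vehicle, positive where PDGF-BB was higher, on the scale of log2(intensity + 16).

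These counts shrank most when a vehicle array was left out. Without vehicle replicate 1, 2 members were called higher and 1 lower, and without vehicle replicate 2, 2 were called higher and 2 lower. The 2 called higher are 4.17% of the members, against 3.8% and 4.06% of all genes in those fits, so there the share of members called higher was near the background. Leaving out either PDGF-BB array lowered the counts in both directions by less. The calls over all genes shrank in the same fits, from 3574 to 791 and 847 without a vehicle array and to 2692 and 1894 without a PDGF-BB array. Only Soat1, Acsl4 and Lpin1 passed in each of these 4 fits. All 19 called members kept their direction in every fit tried.

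The cells' identity and purity were checked on marker genes. The smooth muscle markers Acta2, Tagln and Cnn1 lay between 9597 and 11946 on all arrays, and Myh11 and Smtn fell with PDGF-BB, by 0.70 and 0.79 on the log2 scale with SE 0.13 and 0.10 (limma adjusted p 0.0256 and 0.00930). The 3 measured endothelial markers were all at or below background, with summed intensities of 38.7 and 44.3 with vehicle and 45.1 and 51.1 with PDGF-BB. The 4 measured adipocyte markers summed to 17.8 and 25.0 with vehicle and 23.3 and 30.7 with PDGF-BB, so Adipoq, Plin1, Lep and Cidec were at background. Of 5 macrophage and leukocyte markers 4 were at or below background, while Cd14 was at 1395 and 1473 with vehicle and 1292 and 1126 with PDGF-BB. No marker of another cell type passed the threshold. The array medians were 145 and 148 with vehicle and 144 and 132 with PDGF-BB. Fewer cells of a type and less RNA per cell cannot be told apart in these bulk samples.

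**Figure D1:**
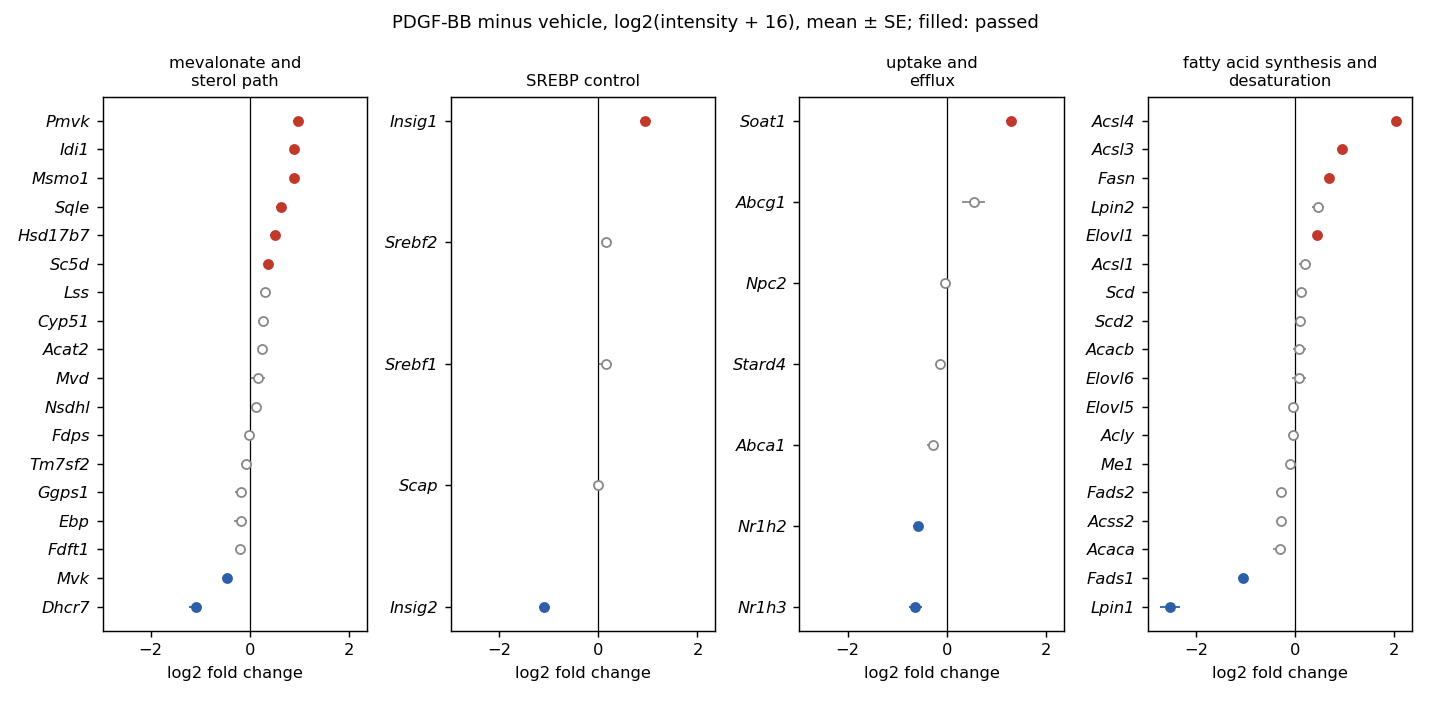
Log2 fold change (PDGF-BB minus vehicle, horizontal axis) of the 48 measured members in 4 panels by role, with the standard error as bars; filled points passed the limma threshold (red higher, blue lower) and open points did not. Acsl4 lies farthest to the right at 2.03 and Lpin1 farthest to the left at -2.53, and the mevalonate and sterol path holds 6 filled points above 0 and 2 below.

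The mevalonate and sterol path rose in part. Of 18 enzymes measured, 6 rose (33.3%), 2 fell (11.1%) and 10 did not pass. Among all genes 12.4% were higher and 15.3% lower. None of these enzymes was at or below background in both groups. Among the genes above background in at least 1 group, 16.2% were higher and 20.2% lower. The median log2 fold change of the 18 enzymes was 0.21, against -0.03 for all genes. The members that rose sit early in the path (Pmvk, Idi1), at squalene (Sqle) and among the late steps that trim lanosterol (Msmo1, Hsd17b7, Sc5d). The 2 that fell are an early kinase (Mvk) and the last reductase (Dhcr7).

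Mevalonate kinase (Mvk) adds the first phosphate to mevalonate. Its intensity was 626 and 608 with vehicle and 467 and 424 with PDGF-BB, for a log2 fold change of -0.46 (limma, SE 0.10, adjusted p 0.0351). Phosphomevalonate kinase (Pmvk), which adds the next phosphate, went the other way. It was at 964 and 894 with vehicle and 1938 and 1735 with PDGF-BB, a rise of 0.97 on the log2 scale (limma, SE 0.11, adjusted p 0.00713). Idi1 encodes the isomerase that supplies dimethylallyl pyrophosphate, the primer of isoprenoid chains. Its values were 5179 and 5466 with vehicle and 9956 and 9882 with PDGF-BB, a rise of 0.90 (limma, SE 0.09, adjusted p 0.00562). In each of these 3 genes both PDGF-BB arrays lay outside the range of the vehicle arrays.

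Squalene epoxidase (Sqle), the first oxygen-dependent step, rose from 1983 and 1929 to 3008 and 3028, by 0.62 on the log2 scale (limma, SE 0.09, adjusted p 0.0121). Msmo1, the oxidase that removes the methyl groups at carbon 4 of the sterol ring, had 5890 and 6001 with vehicle and 11198 and 10892 with PDGF-BB, a rise of 0.89 (limma, SE 0.09, adjusted p 0.00540). Hsd17b7 encodes a ketosteroid reductase that acts in the same demethylation. It rose from 1048 and 1005 to 1558 and 1389, by 0.51 (limma, SE 0.10, adjusted p 0.0307). The desaturase Sc5d, which acts just before Dhcr7, rose from 1699 and 1636 to 2161 and 2129, by 0.36 (limma, SE 0.09, adjusted p 0.0480), the smallest called change of the path. Dhcr7, which makes cholesterol from its last precursor in one branch of the path, was at 840 and 838 with vehicle and 428 and 347 with PDGF-BB. Its log2 fold change was -1.09 (limma, SE 0.13, adjusted p 0.00847). By the ratio of means the intensity of Dhcr7 was 2.16-fold lower, while that of Sc5d was 1.29-fold higher. The difference between Dhcr7 and Sc5d was not tested.

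The other 10 enzymes had log2 fold changes between -0.19 and 0.31, 5 above and 5 below 0. Farnesyl diphosphate synthase (Fdps), the branch point towards prenylation and sterols, was at 7603 and 7617 with vehicle and 7518 and 7560 with PDGF-BB, for a log2 fold change of -0.01 (SE 0.08) that was 0.063 with array medians equalised. Lanosterol demethylase (Cyp51) was at 4958 and 5402 against 6372 and 6083, with a log2 fold change of 0.27 (limma, SE 0.10, adjusted p 0.125). The thiolase Acat2, which makes acetoacetyl-CoA, was at 2106 and 2129 against 2624 and 2428, with 0.25 (limma, SE 0.09, adjusted p 0.128). For Acat2, Mvd, Lss, Cyp51 and Nsdhl both PDGF-BB arrays were above both vehicle arrays although the test was not passed. For Fdps, Ggps1 and Fdft1 both were below, and the groups of Tm7sf2 and Ebp overlapped. Such separation was common, with PDGF-BB wholly above vehicle in 29.7% of all genes and wholly below in 37.8%.

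The calls of the path were lost most when a vehicle array was left out, while the log2 fold changes moved little. Without vehicle replicate 1 and then replicate 2, these were 0.86 and 0.94 for Idi1 and 0.39 and 0.33 for Sc5d. For Dhcr7 the log2 fold change was -1.09 in both fits. In each fit without a vehicle array, all called members of the path missed the threshold. The adjusted p of the 8 called members then lay between 0.0575 and 0.230 without vehicle replicate 1 and between 0.0551 and 0.274 without vehicle replicate 2. Mvk, Hsd17b7 and Sc5d also missed the threshold without PDGF-BB replicate 1 (limma adjusted p 0.0523 to 0.0908), and these 3 and Sqle without PDGF-BB replicate 2 (0.0504 to 0.0942). With an offset of 1 the calls of Mvk, Hsd17b7 and Sc5d were lost (limma adjusted p 0.0632, 0.0599 and 0.0756), as was that of Mvk with the mean of its probe sets (0.0734) and that of Sc5d after quantile normalization (0.0864).

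**Figure D2:**
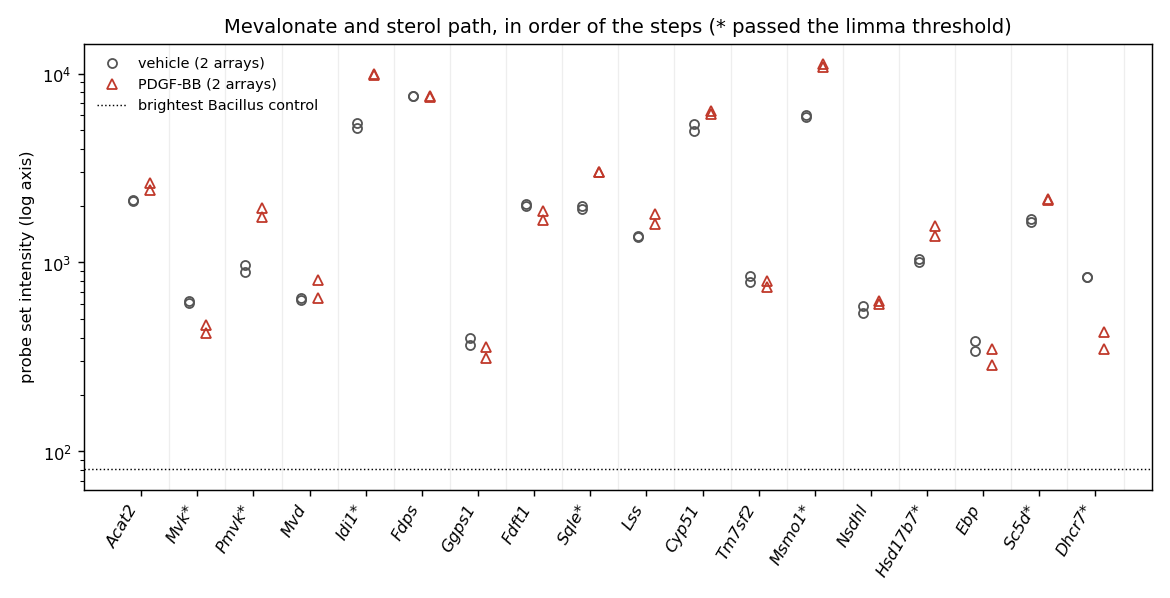
Probe set intensity (log axis) of the 18 measured enzymes of the mevalonate and sterol path on each array, arranged from the first step on the left to the last on the right; circles are the 2 vehicle arrays, triangles the 2 PDGF-BB arrays, the dotted line is the intensity of 80.3 and an asterisk marks genes that passed. Intensities compare arrays within a gene and not genes with each other. Triangles stand clear above circles for Pmvk, Idi1 and Msmo1 and clear below for Mvk and Dhcr7.

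Among the SREBP control genes, the INSIG pair split. Insig1, itself a classical SREBP target, was at 2673 and 2740 with vehicle and 5235 and 5142 with PDGF-BB. It rose 1.92-fold by the ratio of means, a log2 fold change of 0.93 (limma, SE 0.09, adjusted p 0.00487). Insig2, whose protein holds SCAP in the endoplasmic reticulum in the same way, was at 354 and 366 with vehicle and 175 and 147 with PDGF-BB. It fell 2.23-fold, a log2 fold change of -1.09 (limma, SE 0.12, adjusted p 0.00666). The 2 genes were thus called in opposite directions, with no overlap between groups in either. Both calls ended without a vehicle array: limma gave adjusted p 0.0588 for Insig1 and 0.0576 for Insig2 without vehicle replicate 1, and 0.0534 and 0.0593 without vehicle replicate 2. Over the 13 alternatives the highest were 0.0588 for Insig1 and 0.0593 for Insig2.

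The factors and their escort did not pass. Srebf2, the SREBP that favours sterol genes, was at 1906 and 1691 with vehicle and 1955 and 2074 with PDGF-BB, for a log2 fold change of 0.16 (limma, SE 0.11, adjusted p 0.339). Srebf1 was at 426 and 371 against 485 and 403, with 0.15 (limma, SE 0.14, adjusted p 0.503), and its groups overlapped. Scap was at 712 and 613 against 678 and 648, with 0.0045 (limma, SE 0.11, adjusted p 0.987). Its sign changed under 3 alternatives (-0.013 after quantile normalization, -0.10 without vehicle replicate 2, and -0.03 when PDGF-BB replicate 1 was left out). The activity of the 3 proteins was not measured.

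Promoter sequences from RefSeq (build GRCr8) were found for 40 of the 48 members and searched over the 250 bases before the annotated start. The genes shown are the 4 called members of the sterol path and of the INSIG pair with the largest absolute fold changes that have an entry, 2 that rose and 2 that fell; Pmvk had no entry. Letters in capitals mark CCAAT (the box bound by NF-Y, a partner of SREBP at sterol genes, reading ATTGG on the other strand) and CACGTG (an E-box). The windows are chr4:8057770-8058019, minus strand for Insig1, chr17:66547525-66547774, minus strand for Idi1, chr13:35040099-35040348, minus strand for Insig2 and chr1:208444184-208444433, plus strand for Dhcr7.
Insig1: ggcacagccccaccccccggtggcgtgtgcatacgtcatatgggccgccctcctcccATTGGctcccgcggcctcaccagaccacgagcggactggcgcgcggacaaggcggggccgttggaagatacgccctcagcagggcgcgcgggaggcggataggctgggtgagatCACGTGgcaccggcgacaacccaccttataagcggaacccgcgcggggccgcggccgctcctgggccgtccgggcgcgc
Idi1: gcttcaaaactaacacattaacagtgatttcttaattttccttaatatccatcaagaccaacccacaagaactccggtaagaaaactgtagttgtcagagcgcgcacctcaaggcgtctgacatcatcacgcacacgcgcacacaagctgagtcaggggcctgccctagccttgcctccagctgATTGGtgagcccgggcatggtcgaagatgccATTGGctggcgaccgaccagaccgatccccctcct
Insig2: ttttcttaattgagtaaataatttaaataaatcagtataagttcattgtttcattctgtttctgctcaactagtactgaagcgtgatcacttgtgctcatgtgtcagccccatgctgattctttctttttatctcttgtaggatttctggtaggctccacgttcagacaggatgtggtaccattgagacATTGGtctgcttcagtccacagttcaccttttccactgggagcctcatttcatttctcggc
Dhcr7: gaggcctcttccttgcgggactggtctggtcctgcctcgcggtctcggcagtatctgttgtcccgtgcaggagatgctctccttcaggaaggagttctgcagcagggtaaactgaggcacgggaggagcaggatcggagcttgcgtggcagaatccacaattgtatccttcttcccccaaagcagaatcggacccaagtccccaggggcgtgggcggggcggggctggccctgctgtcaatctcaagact

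In the Insig1 window the E-box lay 79 to 74 bases before the start and CCAAT, on the other strand, 193 to 189 bases before it. Idi1 held CCAAT on the other strand in 2 places, at 66 to 62 and 35 to 31 bases. Insig2 held it at 61 to 57 bases, and the Dhcr7 window held neither motif. Over both strands, CCAAT was in 27 of 40 member windows (67.5%) and in 12 of 15 of the sterol path, against 34.29% of all 27457 promoters and 35.27% of the 10685 promoters of genes measured here. It was in 7 of 9 windows of members that rose, 4 of 7 of those that fell and 16 of 24 of those that did not pass, so windows of all 3 kinds held it. CACGTG was in 5 of 40 member windows and 7.80% of measured genes. The sterol response motif TCACNCCAC was in 0 of 40 windows and in 0.94% of the promoters of measured genes; the search says only that these letters are not in these windows.

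Of the 7 genes of sterol uptake, storage and efflux, 1 rose, 2 fell and 4 did not pass, where 12.4% of all genes were higher and 15.3% lower. Soat1 encodes the acyltransferase that esterifies cholesterol for storage in lipid droplets. It was at 791 and 879 with vehicle and 2147 and 2007 with PDGF-BB, 2.49-fold higher, with a log2 fold change of 1.30 (limma, SE 0.10, adjusted p 0.00367). Soat1 passed in all 13 alternatives, where the limma adjusted p was at most 0.0410.

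Both liver X receptor genes fell. Nr1h2, which encodes the beta form, was at 935 and 867 with vehicle and 618 and 578 with PDGF-BB, for a log2 fold change of -0.58 (limma, SE 0.10, adjusted p 0.0197). Nr1h3, the alpha form, was at 46.9 and 35.7 against 21.7 and 19.9, a log2 fold change of -0.63 (limma, SE 0.13, adjusted p 0.0328), with all 4 values below the background of 80.3. Both missed the threshold in each fit that left out an array. The limma adjusted p was 0.153 and 0.166 for Nr1h2 and Nr1h3 without vehicle replicate 1, 0.110 and 0.0766 without vehicle replicate 2, then 0.0525 and 0.1005 when PDGF-BB replicate 1 was left out, and 0.0729 and 0.131 without PDGF-BB replicate 2. Nr1h3 also missed it with an offset of 1 (0.0506).

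Abca1, the transporter that loads cholesterol onto apolipoprotein and a classical liver X receptor target, was at 159 and 146 with vehicle and 133 and 112 with PDGF-BB. Its log2 fold change of -0.29 (limma, SE 0.12, adjusted p 0.162) did not pass, although its groups did not overlap. Abcg1, a second efflux transporter, was at background, at 5.03 and 12.1 against 14.3 and 25.4. Npc2, which hands cholesterol out of lysosomes, was at 4041 and 4037 against 3987 and 3915, a log2 fold change of -0.03 (SE 0.08) that was 0.045 with array medians equalised. The sterol carrier Stard4 was at 126 and 132 against 115 and 115, with -0.14 (limma, SE 0.09, adjusted p 0.308).

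In the fatty acid group, 4 of 18 genes rose, 2 fell and 12 did not pass, against 12.4% higher and 15.3% lower among all genes. Their median log2 fold change was 0.07. The largest rise was in a gene that activates fatty acids and the largest fall in one that acts on phosphatidate. Acsl4, an acyl-CoA synthetase that prefers arachidonate, was at 1102 and 1067 with vehicle and 4587 and 4395 with PDGF-BB. It rose 4.14-fold, with a log2 fold change of 2.03 (limma, SE 0.09, adjusted p 0.000950), the largest increase among the members. Acsl3, the synthetase found on nascent lipid droplets, rose from 975 and 1062 to 1981 and 1951, by 0.94 (limma, SE 0.09, adjusted p 0.00579). Acsl1, the third synthetase among the members, was at 511 and 602 against 667 and 614, with a log2 fold change of 0.20 (limma, SE 0.12, adjusted p 0.307).

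Lpin1 encodes lipin 1, a phosphatidate phosphatase of glycerolipid synthesis that also acts in the nucleus. It was at 271 and 265 with vehicle and 43.2 and 24.9 with PDGF-BB, for a log2 fold change of -2.53 (limma, SE 0.20, adjusted p 0.00358), the largest decrease among the members. Both PDGF-BB values were below background, so the ratio of means of 7.86 depends on dim values, and the log2 fold change ranged from -2.99 to -1.76 over the 13 alternatives. Its paralog Lpin2 was at 309 and 286 against 450 and 383, a log2 fold change of 0.46 (SE 0.12) that missed the threshold at a limma adjusted p of 0.0555. Lpin2 passed in 7 of the 13 alternatives, whose limma adjusted p reached from 0.00198 to 0.261. The difference between Lpin1 and Lpin2 was not tested.

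Of the enzymes that make and modify the chain, fatty acid synthase (Fasn) rose from 2013 and 1882 to 3215 and 3049, by 0.68 on the log2 scale (limma, SE 0.09, adjusted p 0.0122). Elovl1, an elongase of very long chains, rose from 1526 and 1490 to 2113 and 2010, by 0.45 (limma, SE 0.09, adjusted p 0.0299). Fads1, a desaturase of polyunsaturated fatty acid synthesis, fell from 3110 and 2959 to 1454 and 1440. It was 2.10-fold lower, with a log2 fold change of -1.06 (limma, SE 0.09, adjusted p 0.00401). Fads2, the desaturase that acts before it, was at 273 and 267 against 235 and 203, with -0.28 (limma, SE 0.11, adjusted p 0.137); the difference between the pair was not tested.

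The enzymes that supply the building blocks did not pass. ATP citrate lyase (Acly), which makes cytosolic acetyl-CoA, was at 3779 and 3525 against 3519 and 3514, a log2 fold change of -0.05 (SE 0.09) that was 0.023 with array medians equalised. Acetyl-CoA carboxylase (Acaca), the committed step before Fasn, was at 923 and 934 against 825 and 668, with -0.31 (limma, SE 0.13, adjusted p 0.165), and Acacb was at background. The desaturase Scd2 was at 6463 and 6364 against 6972 and 6814, with 0.10 (limma, SE 0.09, adjusted p 0.449), turning to -0.020 after quantile normalization. Elovl5 was at 3467 and 3383 against 3412 and 3228, with -0.05 (SE 0.09), turning to 0.032 with array medians equalised. The 12 genes that did not pass had log2 fold changes from -0.31 to 0.46, 6 above and 6 below 0.

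Acsl4 and Lpin1 passed in all 13 alternatives, where the limma adjusted p was at most 0.0260 and 0.0325. Fads1 missed the threshold without vehicle replicate 1 (0.0502), and Fasn and Acsl3 without vehicle replicate 1 (0.0883 and 0.0628) or vehicle replicate 2 (0.107 and 0.0505). Elovl1 missed it in each fit without an array (limma adjusted p 0.0648 to 0.198) and with an offset of 1 (0.0548).

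**Figure D3:**
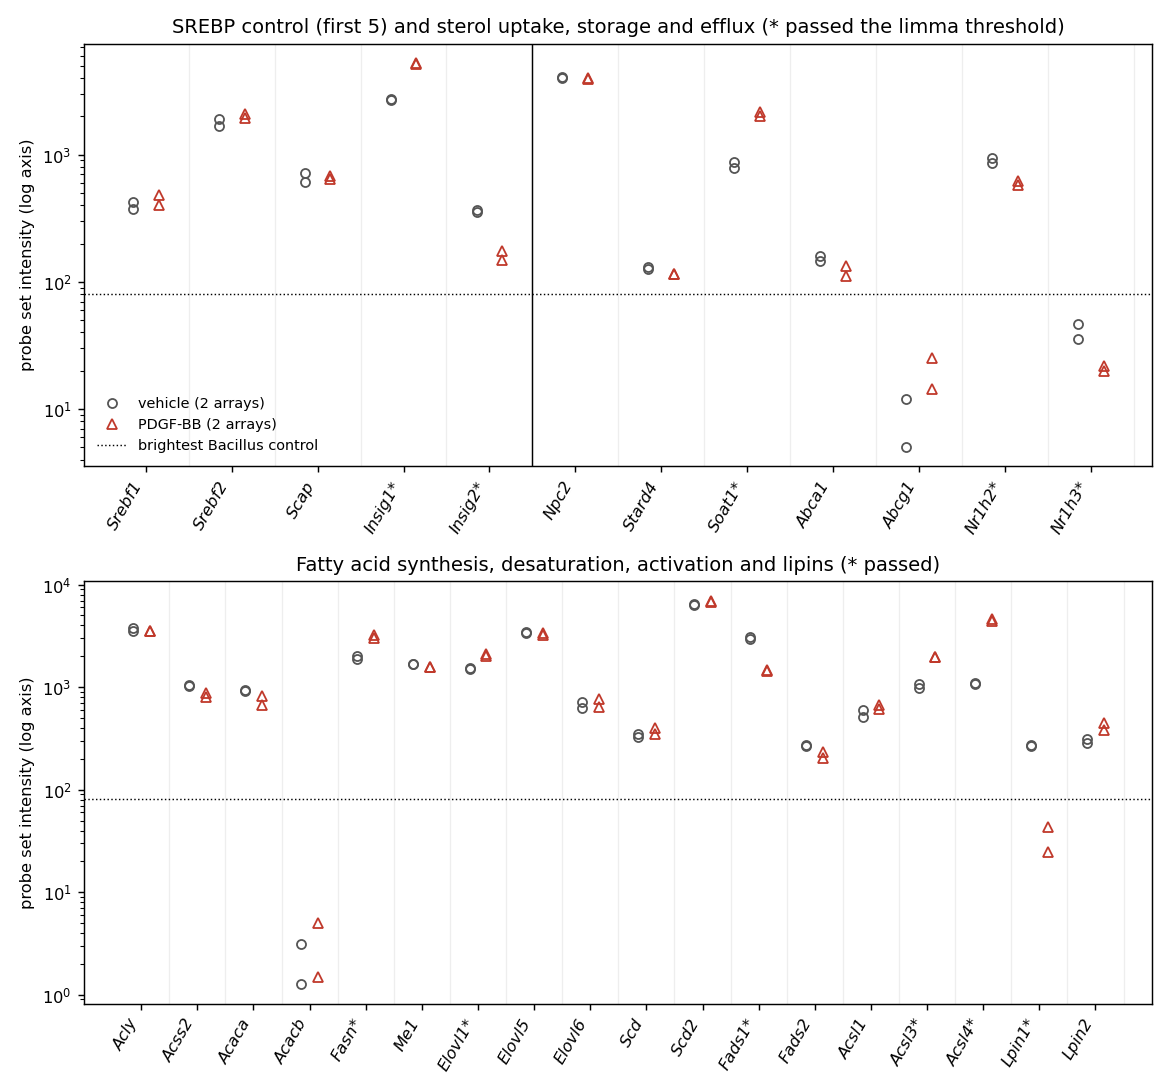
Probe set intensity (log axis) on each array for the 5 SREBP control genes and 7 genes of sterol uptake, storage and efflux (upper panel) and the 18 fatty acid genes (lower panel); circles are the 2 vehicle arrays, triangles the 2 PDGF-BB arrays, the dotted line is the intensity of 80.3 and an asterisk marks genes that passed. Insig1, Soat1 and Acsl4 are raised, Insig2, Fads1 and Lpin1 lowered, and Abcg1, Nr1h3 and Acacb lie wholly under the dotted line.

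Genes with several probe sets gave a second reading of the same arrays. Of 22 such members, 8 were called through their brightest probe set, and in 6 of these every probe set passed in the same direction: Idi1, Hsd17b7, Sc5d, Soat1, Fasn and Lpin1. The second probe set of Idi1 rose by 1.23 (SE 0.08), and that of Sc5d by 0.71 (SE 0.11) on the log2 scale, and that of Soat1 was 2.94-fold higher by the ratio of means (limma adjusted p 0.00576). The second probe set of Lpin1 fell by 2.17 (SE 0.11). For Mvk 2 of 3 probe sets passed and for Nr1h2 1 of 2, and the others of both genes were below background.

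Among the 14 members not called through their brightest probe set, another probe set passed in 5, which were picked out after their values were seen. For Lss, the cyclase that closes the sterol rings, the dimmer probe set was at 259 and 269 with vehicle and 468 and 398 with PDGF-BB, for a log2 fold change of 0.68 (limma, SE 0.11, adjusted p 0.0201), against 0.31 (limma, SE 0.11, adjusted p 0.112) for the brighter one. The other probe sets of Cyp51 and Scd2 were higher by 0.43 (SE 0.09) and 0.49 (SE 0.10). The third probe set of Ggps1, which makes geranylgeranyl pyrophosphate, was lower with a log2 fold change of -0.55 (SE 0.10), and 1 of Abca1 with -0.94 (SE 0.22), from 79.9 and 59.1 to 36.5 and 21.3, all below background. In 0 of the 22 genes did probe sets pass in both directions.

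**Figure D4:**
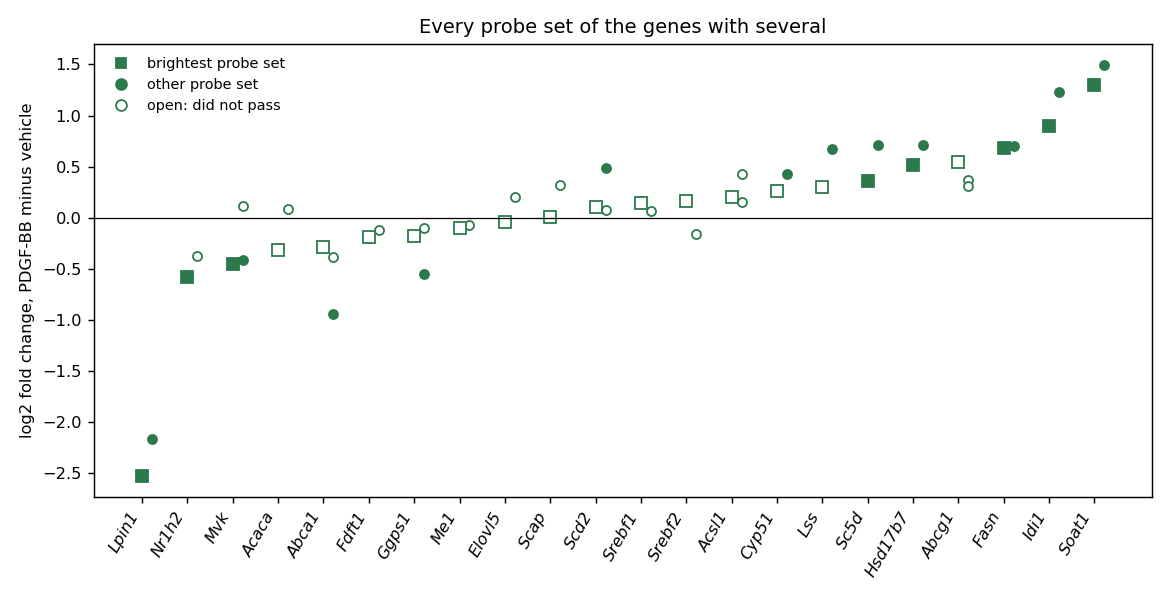
Log2 fold change (PDGF-BB minus vehicle, vertical axis) of every probe set of the 22 members with several; squares are the brightest probe set of each gene, circles the others, and filled symbols passed the limma threshold. The probe sets of Lpin1, Idi1 and Soat1 lie on the same side of 0, and in Lss, Cyp51 and Scd2 a filled circle lies above an open square.

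Of 35 further genes of the pathway, 26 were measured, and 5 were higher, 4 lower and 17 not passed. Among all genes 12.4% were higher and 15.3% lower. The largest changes were those of Plin2 and Agpat2. Plin2, the perilipin that coats lipid droplets, was at 912 and 917 with vehicle and 4677 and 4546 with PDGF-BB, for a log2 fold change of 2.31 (limma, SE 0.09, adjusted p 0.000710). Agpat2, which makes phosphatidate, the substrate of the lipins, rose from 490 and 504 to 2490 and 2403, by 2.26 (limma, SE 0.09, adjusted p 0.000734). Plin2 and Agpat2 passed in all 13 alternatives. The triglyceride synthase Dgat1 rose from 765 and 737 to 1361 and 1238, by 0.78 (limma, SE 0.10, adjusted p 0.00969). Dgat2, which carries out the same reaction and was picked out after its values were seen, fell from 1701 and 1680 to 1306 and 1144, a log2 fold change of -0.46 (limma, SE 0.11, adjusted p 0.0425). Dgat2 missed the threshold without either vehicle array (limma adjusted p 0.220 and 0.202), without PDGF-BB replicate 2 (0.0887) and with an offset of 1 (0.0763).

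Erlin1, a membrane protein that takes part in sterol-dependent control in the endoplasmic reticulum, rose from 598 and 613 to 1095 and 945, by 0.73 (limma, SE 0.11, adjusted p 0.0150). Lipa, the lysosomal acid lipase that frees cholesterol from its esters, fell from 1049 and 1077 to 659 and 626, a log2 fold change of -0.71 (limma, SE 0.09, adjusted p 0.00955). Mbtps2, the protease that makes the final cut of the SREBPs, fell from 444 and 458 to 299 and 257, a log2 fold change of -0.67 (limma, SE 0.11, adjusted p 0.0191). These 3 and Dgat1 missed the threshold without either vehicle array, with limma adjusted p-values of 0.0812 (Dgat1) to 0.119 (Mbtps2) without vehicle replicate 1 and 0.0881 (Dgat1) to 0.128 (Mbtps2) without vehicle replicate 2. Mbtps2 also missed it without PDGF-BB replicate 2 (0.0556).

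**Figure D5:**
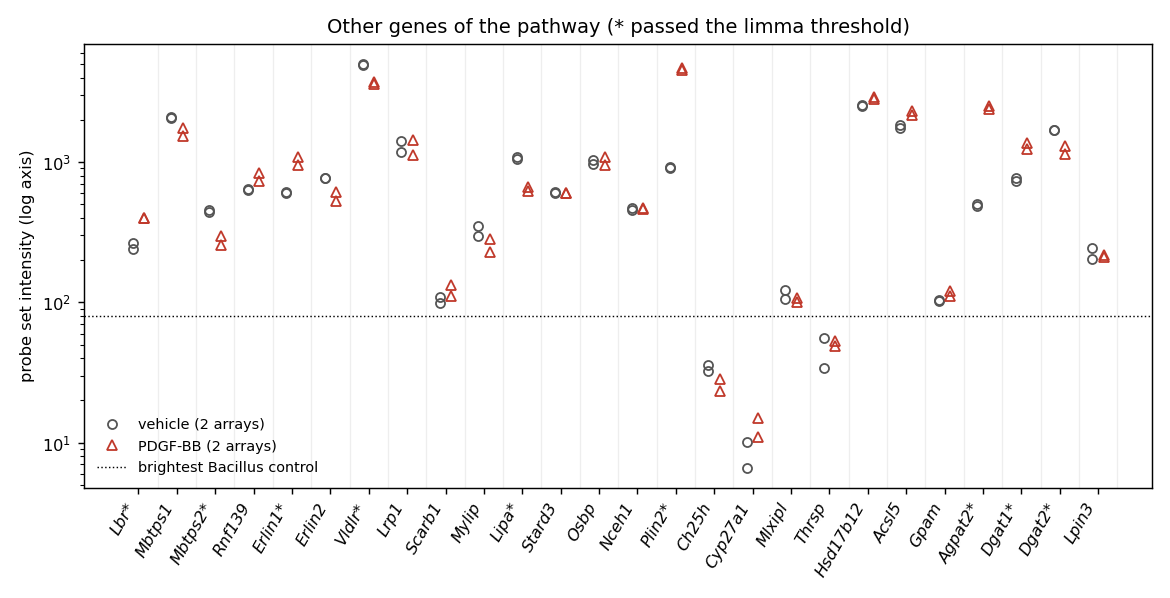
Probe set intensity (log axis) on each array for the 26 measured further genes of the pathway; circles are the 2 vehicle arrays, triangles the 2 PDGF-BB arrays, the dotted line is the intensity of 80.3 and an asterisk marks genes that passed. Plin2 and Agpat2 show the widest separation between the groups.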

How the data were processed

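The deposited table holds probe set intensities on a linear scale, as the values themselves show, from Affymetrix arrays hybridised with biotin-labelled cRNA, per the labels' protocols. How the authors corrected background and scaled arrays is not given in the sources used here. Of 23764 probe sets, 57 controls were left out. A platform annotation dated 2016 gave 1 symbol for 17279 of the other 23707. Values were tested as log2(intensity + 16), which understates the change of dim genes. The two-sided test was limma (version 3.58.1, lmFit then eBayes, under R 4.3.3). Its eBayes step draws the spread of each probe set towards a value shared by all probe sets. The residual degrees of freedom were 2 and those of the shared value 2.40, and each SE and p-value of the test rests on both. P-values were adjusted by Benjamini and Hochberg across all 23707, and 0.05 was the threshold. The procedure was run on data simulated from its own fit. That run cannot test the assumptions of the fit or whether the arrays were independent. Members and lists were chosen with earlier results of these data known. Values per array were given for called members, SREBP control genes and the 3 brightest uncalled members per role, and for the 6 largest called changes of the further genes; other named genes were picked for contrast after their values were seen. Alternatives changed the offset (1 or 64), the scaling, the filter on dim probe sets, the probe set rule, the prior, the replicate block and the arrays used. The number of arrays limits the precision.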

Additional observations from a re-analysis of the deposited data

How the results depend on the processing

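Direction was kept in all 13 alternatives by each of the 19 called members, or in all 12 for Nr1h3, which the filter on dim probe sets left out. Leaving out 1 array changed the counts most: members called higher ranged from 2 to 9 (12 with all arrays), members called lower from 1 to 4 (7 with all arrays) and sterol path members called higher from 0 to 4 (6 with all arrays), and in these fits 1 group has a single array, whose spread is assumed to be that of the other group. Under the other settings members called higher ranged from 9 to 18 (18.8% to 37.5% of those tested) and members called lower from 5 to 10 (10.4% to 20.8%). The shares of all genes moved as well, from 9.72% to 22.3% higher and from 10.3% to 29.6% lower. The titles number the replicates alike in both groups, but deviations of same-numbered arrays correlated at -0.10, so the numbers are not shown to pair them; with the replicate number as a block, 11 members were higher, 6 lower, and 5 of the sterol path higher, and calls of Mvk (adjusted p 0.0653), Sc5d (0.116) and Elovl1 (0.0676) by limma were lost. An intensity trend with a robust prior called 5552 genes instead of 3574. Members that had not passed changed sign near 0: with array medians equalised Fdps (0.063), Npc2 (0.045), Acly (0.023) and Elovl5 (0.032), after quantile normalization Scap (-0.013) and Scd2 (-0.020), and with the mean of all probe sets Elovl5 (0.081). Over the fits without 1 array, Scap ranged from -0.10 to 0.11, Acacb from -0.054 to 0.21 and Elovl6 from -0.058 to 0.20. The cause was not tested. Values below the Bacillus controls, among them Nr1h3, Abcg1, Acacb and Lpin1 with PDGF-BB, have no reliable size.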
